A study of Mus musculus with 36 samples.

Results

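The p53 pathway was followed in mouse CD4 T cells that were differentiated in culture with or without DFMO, through 31 genes: TRP53, which encodes p53, its close regulators, and genes that p53 is known to activate. They came as a list of names and were matched to the deposited table by symbol, written in capitals as the table gives them. All 31 had a row among the 20817 gene symbols of the table, and all 31 passed the filter on low counts that left 11526 genes for testing. The rule that picks them uses no measured value, but the list was drawn up with earlier results of these data known.

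p53 is a transcription factor that is kept scarce in unstressed cells, because MDM2 tags it for destruction and MDM4 masks its activating domain. DNA damage, nucleolar stress or nutrient stress releases it, mostly by changing the protein and not its mRNA, and it then binds paired half-sites in DNA and switches on genes for cell cycle arrest, cell death, DNA repair and metabolic restraint. MDM2 and PPM1D are themselves among its targets and close negative feedback loops, and activated T cells, which divide fast, rely on this balance.

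Naive CD4 T cells from the spleens of C57BL/6 mice, sorted as CD44-, CD62L+ and CD25-, were activated with plate-bound anti-CD3 and anti-CD28 and driven into 3 lineages. For the pathogenic Th17 lineage, called Th17p, the cytokines were IL-6 (25 ng/ml), IL-1b (20 ng/ml) and IL-23 (20 ng/ml). For the non-pathogenic one, called Th17n, they were IL-6 (25 ng/ml) and TGFb1 (2 ng/ml), and TGFb1 alone (2 ng/ml) made iTreg, the induced regulatory cells. Each lineage was cultured with vehicle or with 100 µM DFMO, an irreversible inhibitor of ornithine decarboxylase, the enzyme that opens polyamine synthesis, and live cells were sorted at 68 h. All animals were wild type, and age and sex were not analysed here. The sample titles number the replicates 1, 2 and 3 in all 6 groups. Libraries with the same number were taken to come from the same animal, so that 3 animals gave cells to every group. The 18 libraries, 3 in each group, were each sequenced in 2 runs as paired reads of 75 bases, and runs of a library were summed.

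Library totals were 8307633 to 13986923 counts. The summed level of 5 Th17 markers was 336 to 2183 CPM (counts scaled to the library total and by TMM factors) in the Th17 libraries and 19.1 to 39.7 CPM in the iTreg libraries. The sum of 4 iTreg markers, led by IL2RA, did not separate the lineages in vehicle, with 1828 to 2080 CPM in Th17n and 1535 to 1994 CPM in iTreg. Singly, FOXP3 averaged 435.1, 11.35 and 0.7831 CPM in vehicle iTreg, Th17n and Th17p. In the same order IKZF2 was at 32.93, 6.809 and 7.774 CPM and LRRC32 at 77.66, 39.85 and 18.09 CPM, each highest in iTreg. IL2RA, at 1157, 1864 and 1504 CPM, was lowest in iTreg. With DFMO the lineage markers moved too. IL17A and IL17F, the Th17 cytokines, fell by 4.57 and 3.15 on the log2 scale in Th17p, and FOXP3, the regulatory T cell factor, rose by 3.09 in Th17n. The part of this in the results for p53 genes was not tested. Of the markers of other cells, 5 B cell markers summed to 1.13 to 23.3 CPM, 3 CD8 T cell markers to 7.95 to 28.9 CPM and 4 NK cell markers to 0.141 to 5.68 CPM. LYZ2, the myeloid lysozyme, was at 0 in every group, and the myeloid list was carried by CST3. The B cell gene CD79B fell with DFMO in Th17p and Th17n, by 2.00 and 1.68 on the log2 scale. The CD8 T cell gene CD8B1 fell in Th17n by 0.787, and the part of such cells was not tested either. Of the CD4 T cell markers in Th17n, CD3D, CD3G and CD4 fell by 0.645, 0.565 and 0.550. CD3E and LCK were not called there (0.132 and 0.015). Among DFMO libraries, those of animal 2 in Th17n and iTreg were the lowest of their group in 18 and 16 of the 31 genes (58.1% and 51.6%), against 34.1% and 29.5% of all genes tested. Among vehicle libraries, those of animal 1 in Th17n and iTreg were the lowest in as many, 18 and 16, against 33.5% and 39% of all genes. Counts are therefore also given without either pair of libraries, alternatives chosen after seeing the data.

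Windows at transcript starts were searched for p53 half-sites. Sites farther away, or with a mismatch, are not covered. The windows of 5 genes are printed because these moved differently: CDKN1A, the classical target, BAX and CCNG1, which were higher with DFMO, SESN1, which was lower, and MDM2, which was not called. RefSeq windows for build GRCm38.p6, from 250 bases before to 50 after a transcript start, were matched for 23 of the 31 genes (22 by symbol and 1 by synonym), giving 30 windows. A p53 half-site, the 10-letter p53 consensus taken without mismatch, was found in 12 of the 30 windows (40%), which belong to 11 genes, and in 8.36% of all 32851 windows. The consensus reads the same on both strands, so 1 search covers both. A full site, taken as a pair of half-sites with at most 13 bases between them, was found in 24 of all windows (0.0731%) and in 1 window of the listed genes, that of CDKN1A. Capitals mark the half-sites:
Cdkn1a upstream window, chr17:29090851-29090970, plus strand: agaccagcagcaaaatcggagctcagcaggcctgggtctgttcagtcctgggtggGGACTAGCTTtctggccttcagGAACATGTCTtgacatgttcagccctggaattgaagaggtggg
Bax upstream window, chr7:45467029-45467148, minus strand: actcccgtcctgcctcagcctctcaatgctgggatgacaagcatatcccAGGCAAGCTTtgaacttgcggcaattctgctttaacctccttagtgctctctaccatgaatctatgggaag
Ccng1 upstream window, chr11:40755407-40755526, minus strand: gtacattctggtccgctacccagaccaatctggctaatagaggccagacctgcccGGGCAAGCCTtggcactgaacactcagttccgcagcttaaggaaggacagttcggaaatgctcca
Mdm2 upstream window, chr10:117710880-117710999, minus strand: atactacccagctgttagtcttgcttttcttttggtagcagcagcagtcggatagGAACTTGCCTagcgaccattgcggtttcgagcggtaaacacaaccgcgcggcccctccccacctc
Sesn1 upstream window, chr10:41887211-41887330, plus strand: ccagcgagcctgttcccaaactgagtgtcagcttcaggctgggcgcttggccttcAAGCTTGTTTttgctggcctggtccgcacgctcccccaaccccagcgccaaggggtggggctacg
The CDKN1A half-sites lie at -73 and -51 from the transcript start of the window, those of BAX, CCNG1, MDM2 and SESN1 at -201, -185, -186 and -173. The SESN1 window lies inside its gene (chr10:41809935-41908424, plus strand), at an inner transcript start. That of POLK also lies inside its gene (chr13:96480690-96542579, minus strand). The other 6 genes with a half-site were AEN, EI24, GADD45A, POLK, PPM1D and TRP53. ZMAT3, RRM2B, PMAIP1, PERP, TRP53INP1, DDB2, TNFRSF10B and XPC had no entry. A match of letters is a description of the window and not a measured site.

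Levels in TPM, a unit corrected for transcript length, averaged over the 9 vehicle libraries, spanned a wide range. CDKN1A led with a mean of 207 TPM (131 to 276 over the 9 libraries), followed by BAX with 201 TPM (151 to 257), TRP53 with 129 TPM (90.3 to 162), CCNG1 with 92.1 TPM and FAS with 66.3 TPM. The ranges of CDKN1A and BAX overlapped, and so did those of BAX and TRP53. At the bottom stood GADD45A with 1.63 TPM and PPM1D with 1.36 TPM, with as few as 10 and 8 counts in a vehicle library.

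DFMO moved many of these genes in both directions. In Th17p, 5 genes were higher and 8 lower, in Th17n 10 were higher and 11 lower, and in iTreg 6 were higher and 10 lower (called at an adjusted p under 0.05, edgeR, over 11526 genes). These are 13 of 31 (41.9%), 21 of 31 (67.7%) and 16 of 31 (51.6%), where 33.0%, 46.4% and 37.6% of all genes tested were called. By direction, the share of all genes called higher was 15.9% in Th17p, 22.8% in Th17n and 18.3% in iTreg, and lower 17.1%, 23.7% and 19.2%. The median log2 fold change of the 31 genes was 0.07, -0.09 and -0.09, beside 0.00, -0.02 and -0.05 (values for Th17p, Th17n and iTreg) over all genes. In bulk RNA, a change in the mix of cells and a change in RNA per cell cannot be told apart.

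Of the called genes, 8 of 13, 12 of 21 and 10 of 16 were called under every alternative processing and with each animal left out in turn. On log2 TPM the split between higher and lower was 7 and 5 in Th17p and 5 and 14 in iTreg. The median log2 fold change over all genes on log2 TPM was 0.018 in Th17p and -0.187 in iTreg, against 0.000 and -0.045. Over all genes in iTreg, 2112 were higher and 2217 lower, and in another setting, no scaling factors, 1284 and 3283. Without the 2 DFMO libraries of animal 2, the counts were 17 in Th17p (8 higher, 9 lower), 18 in Th17n (10 higher, 8 lower) and 15 in iTreg (7 higher, 8 lower). Without the 2 vehicle libraries of animal 1 they were 14 (6 higher, 8 lower), 18 (8 higher, 10 lower) and 16 (6 higher, 10 lower). The shares of all genes given above belong to the fit of all libraries. Those of these 2 settings are not reported here. Both settings leave out libraries of Th17n and iTreg only. Calls in Th17p therefore change there only through the fit that all groups share, here and below, and not through its own libraries. The CDKN1A change in Th17p, for one, was -0.497 with all libraries and -0.500 without the DFMO libraries of animal 2.

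**Figure D1:**
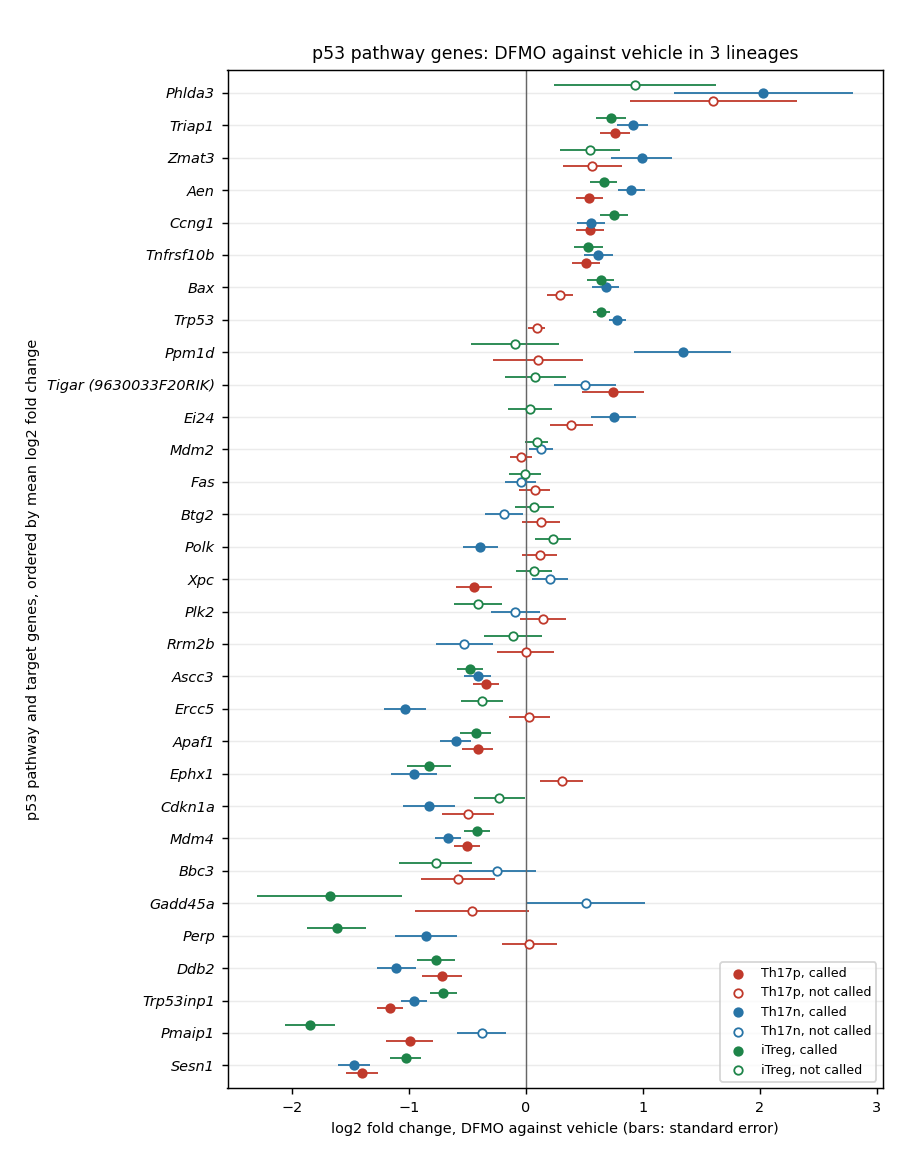
Log2 fold change with DFMO against vehicle (horizontal axis, bars show the standard error) for the 31 genes (vertical axis) in Th17p, Th17n and iTreg, 3 libraries a group; filled points were called and open points were not. PHLDA3, TRIAP1, AEN, CCNG1 and TNFRSF10B lie right of 0 in all 3 lineages and SESN1, TRP53INP1, DDB2 and MDM4 lie left of 0 in all 3.

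Among the 4 genes that set the amount and activity of p53, the p53 gene itself rose with DFMO in 2 lineages while its masking partner MDM4 fell in all 3. TRP53 (chr11:69580359-69591873, GRCm38) stood at 234, 229 and 236 CPM in vehicle Th17p (animals 1, 2 and 3) and at 259, 224 and 260.2 CPM with DFMO. In Th17n it was 177, 181 and 188 CPM in vehicle and 318, 325 and 294 CPM with DFMO, and in iTreg 267, 246 and 235 CPM and 379.7, 404 and 387 CPM. The groups overlapped in Th17p and were apart in Th17n and iTreg. The log2 fold change, here and below with its standard error, was 0.78 ± 0.07 in Th17n (adjusted p = 3e-08) and 0.65 ± 0.07 in iTreg (adjusted p = 6.9e-07), and in Th17p 0.09 ± 0.07 (adjusted p = 0.36), which did not pass.

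MDM2 (chr10:117688875-117710758), the ubiquitin ligase that removes p53 and is itself a p53 target, did not pass in any lineage. Its libraries held 220.3, 216 and 215 CPM in vehicle Th17p and 202, 219.6 and 210.3 CPM with DFMO. The values were 109, 135 and 129 CPM and 133, 126 and 150.1 CPM in Th17n, and 97.8, 116 and 128 CPM and 114, 119 and 130.5 CPM in iTreg. Vehicle and DFMO overlapped in each lineage, with log2 fold changes of -0.04 ± 0.10, 0.13 ± 0.10 and 0.09 ± 0.10 and adjusted p of 0.77, 0.3 and 0.51.

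MDM4, which covers the activating domain of p53, ranged over 83.3 to 103 CPM in vehicle and 54.7 to 70.02 CPM with DFMO in Th17p, 108 to 119 and 68.5 to 72.2 CPM in Th17n, and 100.2 to 126 and 77.05 to 91.02 CPM in iTreg, with no overlap. It fell by 0.51, 0.67 and 0.42 on the log2 scale. PPM1D, the phosphatase that strips activating phosphates from p53, was 0.976, 2.84 and 1.49 CPM in vehicle Th17n and 3.46, 5.29 and 4.71 CPM with DFMO, a log2 fold change of 1.34 ± 0.42 (adjusted p = 0.012) with groups that did not overlap. In Th17p and iTreg its fold changes were 0.10 and -0.09 and the groups overlapped. Single settings ended the call of MDM4 in iTreg (0.07 without animal 2 and 0.062 without animal 3, adjusted p) and of PPM1D in Th17n (0.09 without animal 3 and 0.064 without the Th17n and iTreg vehicle libraries of animal 1). On log2 TPM the PPM1D change was 0.69.

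The 5 growth arrest genes did not move together. CDKN1A (chr17:29090976-29100727), which encodes the cyclin-dependent kinase inhibitor p21, was 452, 529 and 416 CPM in vehicle Th17p and 391, 312 and 287 CPM with DFMO. In Th17n the libraries held 493, 484 and 416 CPM and 304, 173 and 305 CPM, and in iTreg 236, 252 and 276 CPM and 191, 176 and 285 CPM. Every DFMO library of Th17p and Th17n lay below every vehicle library of its lineage, and the iTreg groups overlapped. The log2 fold changes were -0.50 ± 0.22 (adjusted p = 0.099), -0.83 ± 0.22 (adjusted p = 0.007) and -0.23 ± 0.22 (adjusted p = 0.45), so that only the Th17n change passed in the edgeR fit. Animal 2 gave the lowest CDKN1A value with DFMO in both Th17n and iTreg. Without animal 1 the Th17n change missed the threshold (adjusted p = 0.068). In Th17p the change passed in other settings (adjusted p = 0.016 by DESeq2 and 0.013 without the Th17n and iTreg DFMO libraries of animal 2), and in iTreg on log2 TPM it was -0.48 (adjusted p = 0.05).

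CCNG1, cyclin G1, which acts on MDM2 through a phosphatase, rose in all 3 lineages, from 395, 446 and 439 CPM to 673, 605 and 593 CPM in Th17p. In vehicle and with DFMO it ranged over 276 to 307 and 343 to 482 CPM in Th17n and 269.7 to 281 and 396 to 562 CPM in iTreg. The changes were 0.55 ± 0.12, 0.56 ± 0.12 and 0.75 ± 0.12 on the log2 scale, and no groups overlapped. Without animal 1 the calls in Th17p and Th17n were lost (adjusted p = 0.095 and 0.059). GADD45A, a stress gene of arrest and repair, fell in iTreg from 1.07, 1.10 and 1.01 CPM to 0.497, 0.249 and 0.262 CPM, which is 34 counts against 10 summed over 3 libraries each, with a log2 fold change of -1.68 ± 0.62 (adjusted p = 0.037). The 2 groups did not overlap. The call was lost with any animal left out (adjusted p = 0.097, 0.19 and 0.15), with no filter on low counts (0.07) and without the 2 DFMO libraries of animal 2 (0.14) or the 2 vehicle libraries of animal 1 (0.07). On log2 TPM the value was -0.66. BTG2, which slows proliferation, and PLK2, a kinase of the cell cycle, did not pass in any lineage in the edgeR fit of all libraries; their log2 fold changes ran from -0.19 to 0.13 and from -0.41 to 0.14. PLK2 in iTreg was called lower with no scaling factors (-0.58, adjusted p = 0.036), on log2 TPM (-0.62, adjusted p = 0.033) and without animal 3 (-0.74, adjusted p = 0.042).

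Of the 13 genes of cell death and survival, 3 rose and 3 fell in Th17p, 7 rose and 3 fell in Th17n, and 4 rose and 4 fell in iTreg. That is 23.1%, 53.8% and 30.8% higher and 23.1%, 23.1% and 30.8% lower, where 15.9%, 22.8% and 18.3% of all genes were higher and 17.1%, 23.7% and 19.2% lower. AEN, a nuclease that p53 induces in dying cells, TNFRSF10B, a death receptor for TRAIL, and TRIAP1, a small mitochondrial protein that protects from apoptosis, rose in all 3. TRIAP1 was 31.7, 27.9 and 31.4 CPM in vehicle Th17p and 53.9, 46.3 and 54.03 CPM with DFMO, 21.4, 23.9 and 27.8 CPM and 47.8, 38.3 and 52.1 CPM in Th17n, and 32.1, 30.6 and 31.2 CPM and 47.1, 55 and 53.3 CPM in iTreg. Vehicle and DFMO were apart in each lineage, and the log2 fold changes were 0.76 ± 0.13, 0.91 ± 0.13 and 0.73 ± 0.13. AEN rose by 0.54 ± 0.12, 0.90 ± 0.12 and 0.66 ± 0.12 on the same scale, and TNFRSF10B by 0.51 ± 0.12, 0.62 ± 0.12 and 0.53 ± 0.12, and on log2 TPM it was 0.29 in iTreg with an adjusted p of 0.082.

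BAX, which opens the outer mitochondrial membrane, rose in Th17n (range 116 to 125 CPM in vehicle, 169 to 209.5 CPM with DFMO) and in iTreg (132 to 179 and 199.7 to 272 CPM), by 0.68 ± 0.12 and 0.64 ± 0.12 on the log2 scale. In Th17p its groups were also apart, at 160.3 to 174 and 192 to 217 CPM, and the change of 0.29 ± 0.12 had an adjusted p of 0.056. It passed in other settings (adjusted p = 0.026 with the replicate block, 0.044 with no filter on low counts, 0.044 on log2 TPM, 0.036 without the Th17n and iTreg DFMO libraries of animal 2, 0.034 without the Th17n and iTreg vehicle libraries of animal 1). The replicate block has animal as a term of the fit. On log2 TPM the iTreg change of BAX was 0.41 and that of AEN 0.43, both called.

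PHLDA3, which blocks the survival kinase AKT at the membrane, had the largest fold change of the 31 genes in Th17n: 3.17, 5.35 and 7.96 CPM in vehicle and 20.5, 8.56 and 39.7 CPM with DFMO, 2.03 ± 0.77 on the log2 scale (adjusted p = 0.046). The groups did not overlap, yet animal 2 with DFMO was close to animal 3 in vehicle. Its values were 7.48, 19.3 and 9.92 CPM and 30.1, 30.7 and 50.03 CPM in Th17p, and 10.1, 14.2 and 25.01 CPM and 23.5, 8.38 and 62.8 CPM in iTreg, where animal 2 was the lowest of all 6 libraries. Neither change passed (adjusted p = 0.11 and 0.33), though Th17p did on other settings (0.046 on log2 TPM and 0.036 without the Th17n and iTreg DFMO libraries of animal 2). The Th17n call was lost in 4 settings (adjusted p = 0.073 with no filter on low counts, 0.26 without animal 1, 0.094 without animal 3, 0.14 without the Th17n and iTreg vehicle libraries of animal 1). ZMAT3, an RNA-binding protein, and EI24, a membrane protein of the endoplasmic reticulum, were called higher in Th17n, by 0.99 ± 0.26 and 0.75 ± 0.19, and both calls were lost without animal 3 (adjusted p = 0.064 and 0.05). ZMAT3 did not pass in Th17p (0.57 ± 0.25, adjusted p = 0.1) or iTreg (0.55 ± 0.26, adjusted p = 0.11), but it did by DESeq2 (adjusted p = 0.05 and 0.041) and without the 2 DFMO libraries of animal 2 (adjusted p = 0.028 and 0.0074, with 0.80 in iTreg). The differences of their DFMO effects between lineages did not pass, except that of EI24 for iTreg minus Th17n with no scaling factors (-0.89, adjusted p = 0.027) and on log2 TPM (-0.84, adjusted p = 0.013).

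Other death genes went down. PMAIP1, which encodes the BH3-only protein NOXA, fell from 29.8, 38.8 and 30.1 CPM to 17.6, 15.4 and 16.4 CPM in Th17p and from 19.4, 30.97 and 28.2 CPM to 6.46, 6.47 and 8.81 CPM in iTreg. In Th17n it was 14.8, 17.3 and 19.9 CPM and 11.8, 10.9 and 17.2 CPM, and only there did the groups overlap. The log2 fold changes were -0.996 ± 0.20 (adjusted p = 0.00065), -0.38 ± 0.21 (adjusted p = 0.14) and -1.85 ± 0.21 (adjusted p = 9.4e-07) in Th17p, Th17n and iTreg. TRP53INP1, a stress protein that promotes p53 activity and autophagy, fell in all 3 lineages, in Th17p from 183, 173 and 171 CPM to 85.99, 87.7 and 61.7 CPM, or -1.16 ± 0.11 on the log2 scale, and by 0.96 and 0.71 in Th17n and iTreg. All its DFMO libraries lay below those in vehicle. APAF1, the scaffold of the apoptosome, fell by 0.41, 0.60 and 0.43 in Th17p, Th17n and iTreg. Its call was lost in Th17p (0.059 on log2 TPM, 0.14 without animal 1, 0.09 without animal 3) and in iTreg (0.1 without animal 1, 0.17 without animal 2, 0.064 without the Th17n and iTreg DFMO libraries of animal 2).

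PERP, a membrane protein of p53-dependent apoptosis, fell in iTreg from 30.8, 39.9 and 49.8 CPM to 12.2, 11.4 and 15.5 CPM and in Th17n from 14.6, 18.8 and 23.02 CPM to 11.5, 7.24 and 12.8 CPM. In Th17p it was 48.5, 90.4 and 73.5 CPM in vehicle and 71.8, 62.05 and 82.5 CPM with DFMO, with overlap. The changes were -1.62 ± 0.26, -0.85 ± 0.27 and 0.03 ± 0.23 on the log2 scale, with adjusted p of 9.6e-05, 0.014 and 0.94, and the Th17n call was lost without animal 2 (0.12) and without the 2 DFMO libraries of animal 2 (0.081). BBC3, which encodes the BH3-only protein PUMA, and the death receptor FAS did not pass in any lineage. BBC3 was 6.34, 7.63 and 7.24 CPM in vehicle iTreg and 5.71, 3.07 and 3.75 CPM with DFMO (-0.77 ± 0.31, adjusted p = 0.055), without overlap, and it was called in other settings (adjusted p = 0.04 by DESeq2, 0.02 with no scaling factors, 0.0025 on log2 TPM, 0.05 without animal 1).

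The 6 DNA repair genes had no call for a rise in any lineage, also at an unadjusted p under 0.05 and by DESeq2. Of all genes, 15.9%, 22.8% and 18.3% were called higher in Th17p, Th17n and iTreg. With 6 genes, the absence of a rise is close to these shares. In all, 3, 4 and 2 of them (50%, 66.7% and 33.3%) fell in Th17p, Th17n and iTreg, where 17.1%, 23.7% and 19.2% of all genes fell. DDB2, which finds ultraviolet lesions in chromatin, was 28.1, 29.5 and 27.1 CPM in vehicle Th17n and 12.6, 14.6 and 12.04 CPM with DFMO. It ranged over 18.6 to 27.9 and 11.8 to 14.96 CPM in Th17p and over 28.1 to 33.5 and 15.3 to 19.99 CPM in iTreg, and vehicle and DFMO never overlapped. It fell by 0.72, 1.11 and 0.77 on the log2 scale in Th17p, Th17n and iTreg. In the GENCODE M21 annotation 652 of its exon bases (23.8%) are shared with Acp2 on the opposite strand, and whether the counting used strand is not given in the sources used here.

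ERCC5, the nuclease XPG that cuts beside a lesion, was 45.9, 52 and 44.5 CPM in vehicle Th17n and 24.2, 19.1 and 26.2 CPM with DFMO, with no overlap and a log2 fold change of -1.04 ± 0.18 (adjusted p = 8.8e-05). In Th17p its change was 0.03 ± 0.18 and in iTreg -0.37 ± 0.18 (adjusted p = 0.11), and both pairs of groups overlapped. The iTreg change was called with no scaling factors (-0.54, adjusted p = 0.022), on log2 TPM (-0.51, adjusted p = 0.037) and without the Th17n and iTreg vehicle libraries of animal 1 (-0.55, adjusted p = 0.016). ASCC3, a helicase of alkylation repair, fell by 0.34, 0.41 and 0.48 in Th17p, Th17n and iTreg. POLK, a polymerase that copies past lesions, fell by 0.39 in Th17n, and XPC, the partner of DDB2 in lesion recognition, by 0.45 in Th17p. These smaller changes lost calls in several settings. ASCC3 lost its call in Th17p with any animal left out (adjusted p = 0.09, 0.14 and 0.064). It lost it in Th17n (0.08 on log2 TPM, 0.13 without animal 2, 0.13 without animal 3, 0.055 without the Th17n and iTreg DFMO libraries of animal 2) and in iTreg (0.066 without animal 3) too. The same held for POLK in Th17n (0.19 on log2 TPM, 0.27 without animal 1, 0.2 without animal 2, 0.14 without the Th17n and iTreg DFMO libraries of animal 2, 0.15 without the Th17n and iTreg vehicle libraries of animal 1). XPC lost its call in Th17p (0.073 with no filter on low counts, 0.059 on log2 TPM, 0.073 without animal 1, 0.15 without animal 2, 0.17 without animal 3). RRM2B, a subunit of the reductase that makes deoxynucleotides, passed nowhere, with -0.53 ± 0.24 in Th17n (adjusted p = 0.082).

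Among the metabolic targets, SESN1, a sestrin that restrains mTORC1 when leucine is scarce, had the largest fall of the 31 genes in Th17p and Th17n. It was 49.3, 42.8 and 35.4 CPM in vehicle Th17p and 13.96, 16.4 and 17.7 CPM with DFMO, and 43.1, 39.4 and 39.6 CPM and 15.4, 14.3 and 14.3 CPM in Th17n. In iTreg, where the starting level was higher, it was 74.5, 62.7 and 72.9 CPM and 37.9, 33.9 and 31.2 CPM. No groups overlapped, and the log2 fold changes were -1.40 ± 0.14, -1.47 ± 0.14 and -1.03 ± 0.13 (adjusted p = 2e-07, 2.8e-08 and 2.8e-06). The sequences shown above for SESN1, BAX and CCNG1 each hold 1 half-site, that of SESN1 at an inner transcript start of the gene. Genes with a half-site in a printed window thus moved both ways.

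EPHX1, an epoxide hydrolase that detoxifies reactive compounds, fell from 18.3, 20.3 and 19.9 CPM to 10.4, 10.3 and 9.51 CPM in Th17n and from 22.6, 31.4 and 24 CPM to 13.04, 12.03 and 18.7 CPM in iTreg, by 0.95 and 0.83 on the log2 scale. In Th17p it was 28.1, 26.1 and 19.5 CPM and 28.8, 36.2 and 25.8 CPM, overlapping, at 0.31 ± 0.18. Without animal 2 the iTreg value was -0.56 with an adjusted p of 0.095. TIGAR, listed under its older RIKEN clone symbol, a phosphatase that slows glycolysis, rose in Th17p from 3.85, 7.43 and 4.68 CPM to 10.3, 7.76 and 8.68 CPM, by 0.74 ± 0.27 (adjusted p = 0.037). Its groups did not overlap, but the highest vehicle and the lowest DFMO library, both of animal 2, lay close together. The change was 1.14 without animal 2 and 0.45 without animal 1 (adjusted p = 0.34), with an adjusted p of 0.18 without animal 3 and 0.063 with no filter on low counts. In Th17n it was 0.51 ± 0.27 (adjusted p = 0.13), called on log2 TPM alone (0.38, adjusted p = 0.043).

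Over the 3 lineages, 4 genes were called higher in each (AEN, CCNG1, TNFRSF10B and TRIAP1, 12.9% of 31) and 6 lower in each (MDM4, TRP53INP1, SESN1, DDB2, ASCC3 and APAF1, 19.4%). Of all genes tested, 8.58% were higher and 8.25% lower in all 3. In edgeR 25 of the 31 (80.6%) were called in at least 1 lineage, against 62.9% of all genes, and no gene of the 31 was called in opposite directions in 2 lineages, against 1.75% of all genes. By the numbers in the sample titles, the 3 lineages shared their animals but no libraries.

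**Figure D2:**
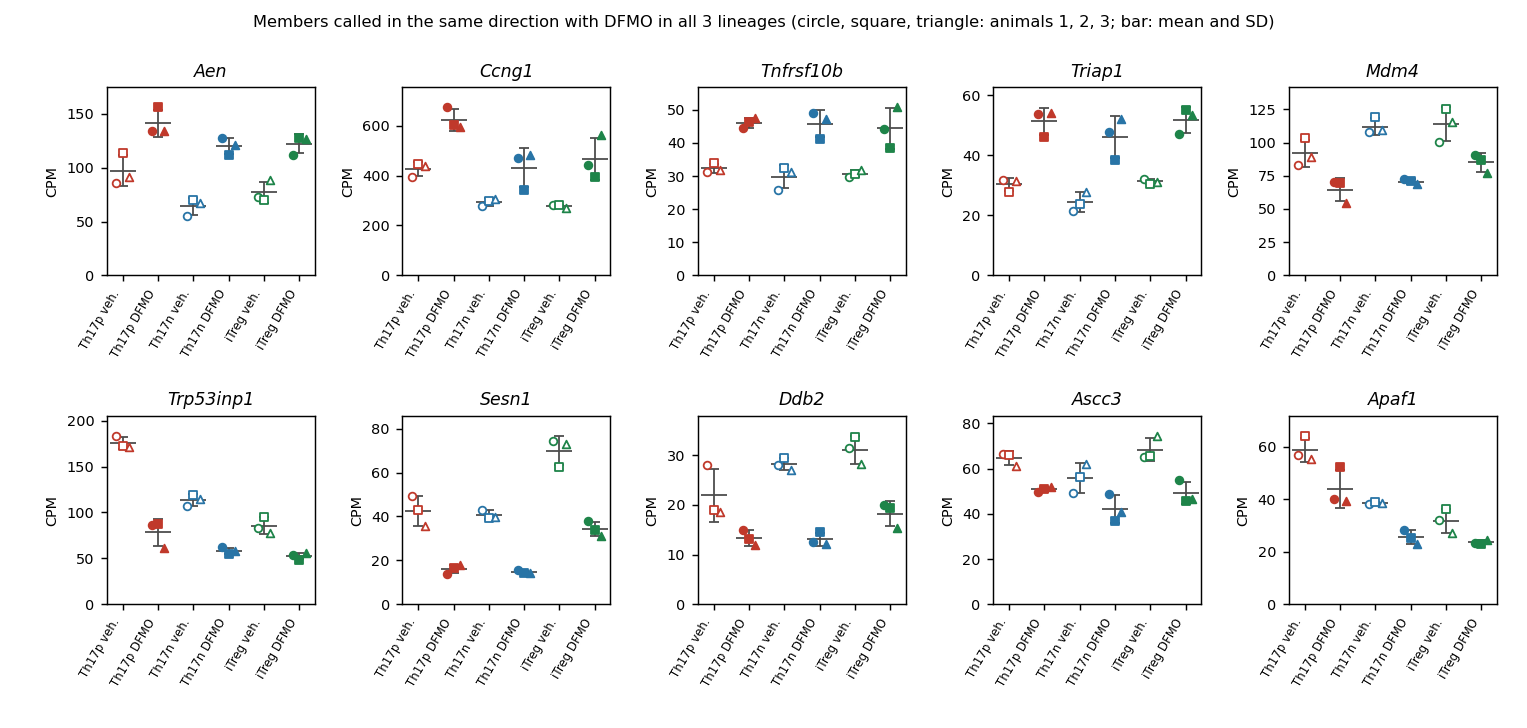
CPM (vertical axis, linear, from 0) in each of the 18 libraries for the 10 genes called in the same direction in all 3 lineages; open symbols are vehicle, filled symbols DFMO, shapes mark the animals and bars show mean and SD of 3. TRIAP1 separates vehicle from DFMO in each lineage, and SESN1 starts higher in iTreg than in the Th17 lineages.

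Whether the DFMO effect differed between lineages was tested directly, as a difference of log2 fold changes. Of the 31 genes, 3 passed for Th17n minus Th17p (9.68%, against 4.98% of all genes), 1 for iTreg minus Th17n (3.23%, against 12.1%) and 3 for iTreg minus Th17p (9.68%, against 6.85%). TRP53 rose more in Th17n and in iTreg than in Th17p, by 0.69 ± 0.10 and 0.56 ± 0.10 (adjusted p = 0.00066 and 0.002). EPHX1 fell in Th17n and iTreg relative to Th17p, by 1.26 and 1.14 (adjusted p = 0.0088 and 0.011). ERCC5 fell by 1.06 more in Th17n than in Th17p (adjusted p = 0.018), PERP by 1.65 more in iTreg than in Th17p (adjusted p = 0.0085) and PMAIP1 by 1.47 more in iTreg than in Th17n (adjusted p = 0.0026).

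All 7 of these calls were lost when animal 2 was left out, with values that kept their sign: TRP53 at 0.61 and 0.46 (adjusted p = 0.078 and 0.14), EPHX1 at -1.13 and -0.75 (0.17 and 0.32), ERCC5 at -0.83 (0.35), PERP at -1.87 (0.051) and PMAIP1 at -1.39 (0.066). Without animal 1 the calls of EPHX1 (0.073 and 0.059) and ERCC5 (0.075) were lost, and on log2 TPM those of ERCC5 (0.066) and of TRP53 for iTreg minus Th17p (0.092). Leaving out only the 2 DFMO libraries of animal 2 took ERCC5 to an adjusted p of 0.061. With the replicate block, PMAIP1 also passed for iTreg minus Th17p (-0.85, adjusted p = 0.043 against 0.082 without the block) and POLK for iTreg minus Th17n (0.63, adjusted p = 0.034 against 0.063). Without the 2 vehicle libraries of animal 1, PMAIP1 (-1.005, adjusted p = 0.03) and BAX (0.51, adjusted p = 0.045) passed for iTreg minus Th17p. For iTreg minus Th17n, TRP53 passed with no scaling factors (-0.31, adjusted p = 0.04) and on log2 TPM (-0.43, adjusted p = 0.019), against -0.14 (adjusted p = 0.42).

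**Figure D3:**
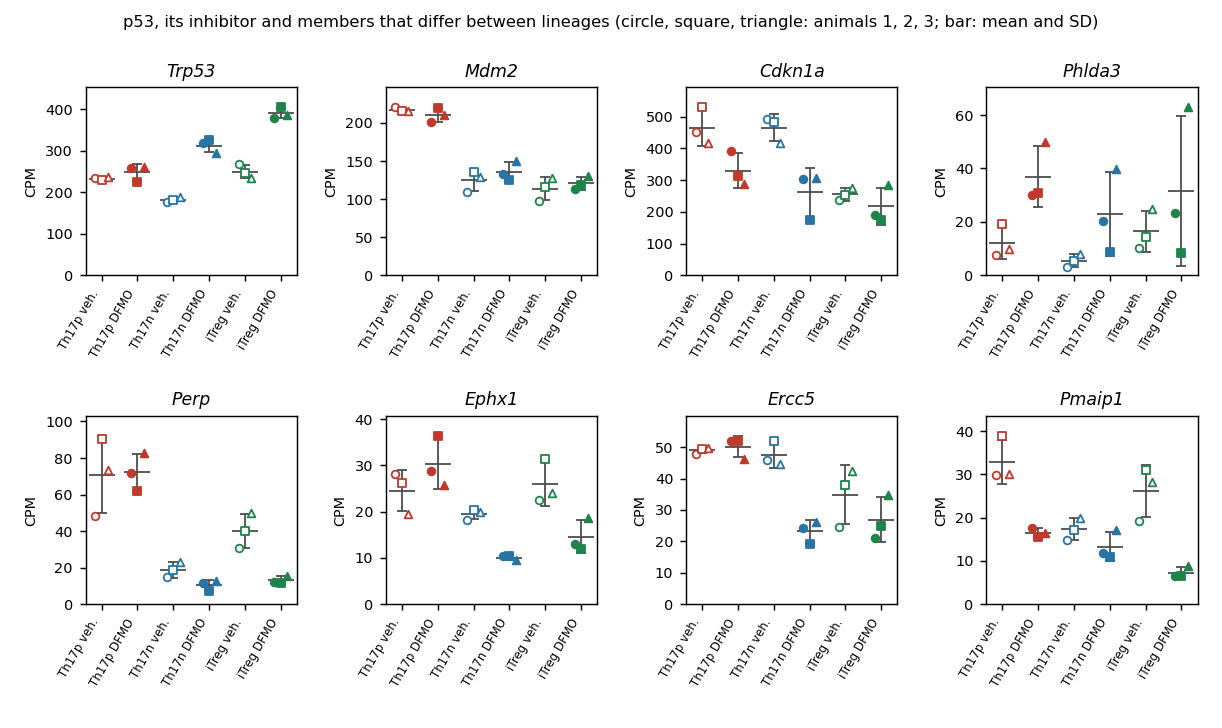
CPM (vertical axis, linear, from 0) in each of the 18 libraries for TRP53, MDM2, CDKN1A, PHLDA3, PERP, EPHX1, ERCC5 and PMAIP1; open symbols are vehicle, filled symbols DFMO, shapes mark the animals and bars show mean and SD of 3. TRP53 rises from vehicle to DFMO in Th17n and iTreg and its groups overlap in Th17p, and the square of animal 2 is the lowest DFMO point for CDKN1A and PHLDA3 in Th17n and iTreg.

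Without inhibitor, p53 genes that differed between Th17n and Th17p were lower in Th17n. There 13 of the 31 genes were lower (41.9%) and 0 higher, while 10.5% of all genes were lower, 9.47% higher and 20.0% called in either direction; at an unadjusted p under 0.05, 2 genes (MDM4 and DDB2) were higher by both edgeR and DESeq2. The median log2 difference of the 31 was -0.40, beside -0.01 over all genes. With no scaling factors 822 of all genes were higher and 1568 lower, against 1091 and 1212. TRP53 was lower by 0.36 and MDM2 by 0.80 on the log2 scale (adjusted p = 0.0013 and 6.6e-06), from the vehicle values given above, and neither pair of groups overlapped. MDM4 was higher by 0.29 (adjusted p = 0.068) and passed with the replicate block (adjusted p = 0.035).

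Among the called genes, the largest differences between Th17n and Th17p in vehicle were those of PERP, PPM1D, PLK2 and PMAIP1; PHLDA3, which was not called, differed by -1.12 ± 0.78 (adjusted p = 0.37). PERP differed by -1.90 ± 0.25, with 14.6, 18.8 and 23.02 CPM in Th17n and 48.5, 90.4 and 73.5 CPM in Th17p. PLK2 was 35.4, 35.2 and 36.6 CPM in Th17n and 70.6, 75.97 and 80.4 CPM in Th17p, at -1.08 ± 0.20 (adjusted p = 0.0011). Neither gene had overlapping groups. PPM1D, with 0.976, 2.84 and 1.49 CPM against 3.74, 6.27 and 3.49 CPM (-1.33 ± 0.42), and PMAIP1, with 14.8, 17.3 and 19.9 CPM against 29.8, 38.8 and 30.1 CPM (-0.92 ± 0.20), were lower in Th17n as well, again without overlap. The call of PPM1D was lost with any animal left out (adjusted p = 0.12, 0.088 and 0.1) and without the 2 vehicle libraries of animal 1 (0.13), with a value of -0.71 on log2 TPM, and that of PMAIP1 without animal 2 (0.07). AEN, BAX, CCNG1, ZMAT3, EI24, TRP53INP1 and APAF1 were also lower, by 0.60, 0.44, 0.54, 0.81, 0.80, 0.63 and 0.60.

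iTreg against Th17n in vehicle went mostly the other way: 10 genes were higher (32.3%) and 4 lower (12.9%), where 18.4% of all genes were higher, 18.9% lower and 37.3% called either way. On log2 TPM the split of the 31 genes was 15 higher and 2 lower, and the median log2 difference over all genes was 0.15 there, against 0.02. Another setting, no scaling factors, gave 3184 higher and 1519 lower over all genes, against 2121 and 2180. These comparisons share their vehicle libraries with the one above, so a gene that is low in Th17n enters both. The same Th17n vehicle libraries are also the baseline of the DFMO effect in Th17n and of its differences from other lineages. TRP53, AEN, BAX, CCNG1, ZMAT3, EI24 and PPM1D were lower in vehicle Th17n than in Th17p and higher with DFMO in Th17n. These are not separate results. TRP53INP1, PERP and APAF1 were lower in both. PPM1D held 51 counts in all over the Th17n vehicle libraries. TRP53 was higher in iTreg by 0.46 ± 0.07 and CDKN1A lower by 0.87 (adjusted p = 4.2e-05 and 0.0072), both without overlap. PPM1D was 6.34, 4.04 and 6.23 CPM in iTreg and 0.976, 2.84 and 1.49 CPM in Th17n (1.64 ± 0.41), and PERP 30.8, 39.9 and 49.8 CPM and 14.6, 18.8 and 23.02 CPM (1.09 ± 0.25). BBC3 was 6.34, 7.63 and 7.24 CPM in iTreg and 3.54, 3.82 and 3.33 CPM in Th17n (0.99 ± 0.31, adjusted p = 0.017). EI24 was 15.3, 13.7 and 15.2 CPM in iTreg and 8.30, 7.21 and 8.23 CPM in Th17n (0.89 ± 0.19, adjusted p = 0.00099). All 4 were apart between the lineages. TRP53, PERP, EI24 and SESN1 were the 4 of 14 genes called under every setting. CDKN1A was lost without animal 1 (adjusted p = 0.14), BBC3 with any animal left out (0.072, 0.077 and 0.11) and PPM1D without animal 1 or 3 (0.056 and 0.051), with a value of 0.94 on log2 TPM. Without the 2 vehicle libraries of animal 1, 8 genes were called (5 higher, 3 lower), and CDKN1A (0.079), BBC3 (0.062) and PPM1D (0.066) were not. The share of all genes called in that fit is not reported here. With the replicate block ERCC5 was also called lower (-0.46, adjusted p = 0.033, against 0.058).

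Between iTreg and Th17p in vehicle, 12 genes were lower in iTreg (38.7%) and 3 higher (9.68%), with 15.7% of all genes lower, 14.5% higher and 30.2% called either way. With no scaling factors 2175 of all genes were higher and 1477 lower, against 1667 and 1810. Without the 2 vehicle libraries of animal 1, 9 of the 31 genes were called (2 higher, 7 lower), and the share of all genes in that fit is not reported here. TRP53 did not pass (0.10 ± 0.07, adjusted p = 0.34), while MDM2 was 97.8, 116 and 128 CPM in iTreg and 220.3, 216 and 215 CPM in Th17p (-0.93 ± 0.10, adjusted p = 2.7e-07). CDKN1A was lower by 0.87 and TRP53INP1 by 1.04, the latter with 83.5, 95.5 and 77.5 CPM against 183, 173 and 171 CPM. BTG2 was 46.6, 38.1 and 37.4 CPM in iTreg and 90.2, 84.2 and 64.2 CPM in Th17p (-0.97 ± 0.17). None of these called genes overlapped between iTreg and Th17p. GADD45A, at 1.07, 1.10 and 1.01 CPM and 3.08, 4.18 and 1.56 CPM, had the largest difference of the called genes, -1.45 ± 0.51 (adjusted p = 0.036), on 34 and 81 counts in all. SESN1, DDB2 and MDM4 were higher in iTreg, by 0.72 ± 0.13, 0.50 ± 0.17 and 0.31 ± 0.11. The calls of CDKN1A (0.12 without animal 1) and GADD45A (0.081 with no filter on low counts, 0.19 without animal 1, 0.25 without animal 2, 0.062 without animal 3, 0.087 without the Th17n and iTreg vehicle libraries of animal 1) were lost in the settings given, as adjusted p. So were those of DDB2 (0.27 without animal 2, 0.11 without animal 3, 0.071 without the Th17n and iTreg vehicle libraries of animal 1) and MDM4 (0.087 without animal 1, 0.09 without animal 2, 0.15 without animal 3). On log2 TPM GADD45A was at -0.80.

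**Figure D4:**
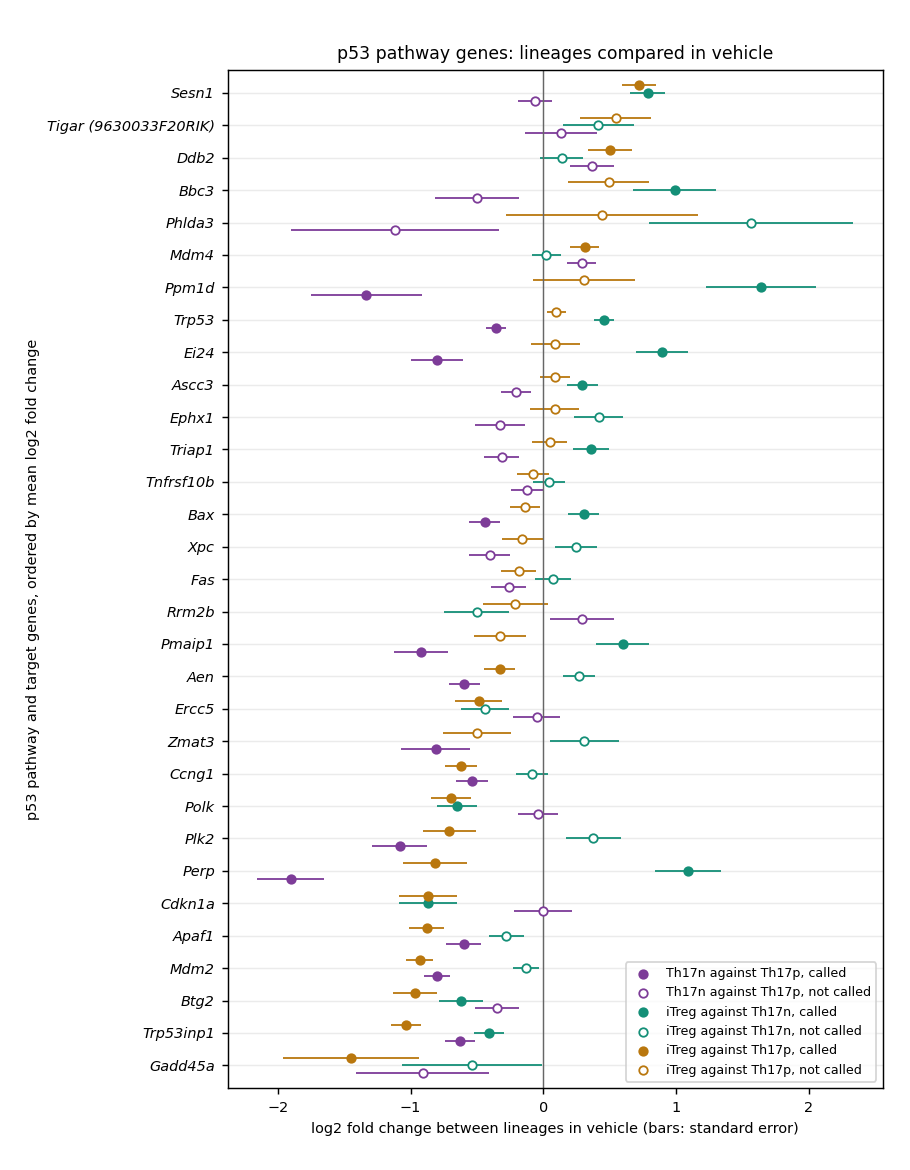
Log2 fold change between lineages in vehicle (horizontal axis, bars show the standard error) for the 31 genes (vertical axis), 3 libraries a group; filled points were called and open points were not. All 13 filled points of Th17n against Th17p lie left of 0, and 10 of the 14 filled points of iTreg against Th17n lie right of it.

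Other genes of the pathway were read from 4 lists. Their counts stand beside 15.9%, 22.8% and 18.3% of all genes higher and 17.1%, 23.7% and 19.2% lower with DFMO in Th17p, Th17n and iTreg. Of 18 tested regulators of p53, 2 rose and 2 fell with DFMO in Th17p (11.1% each way), 5 and 5 in Th17n (27.8% each way), and 4 and 4 in iTreg (22.2% each way). ATM, the kinase that signals DNA breaks to p53, fell in all 3 by 0.82, 0.86 and 0.66 on the log2 scale. RPL5 and RPL11, ribosomal proteins that can bind and block MDM2, rose in iTreg (0.38 ± 0.07 and 0.43 ± 0.08). In Th17p RPL5 rose by 0.23 ± 0.07 (adjusted p = 0.018, lost at 0.13 without animal 1 and 0.17 without animal 3) and RPL11 was 0.17 ± 0.08 (adjusted p = 0.13). In Th17n they were -0.11 ± 0.07 and -0.10 ± 0.08, neither called. The iTreg effects were larger than those in Th17n by 0.49 ± 0.10 and 0.53 ± 0.12 (adjusted p = 0.003 and 0.0055). These calls were lost for RPL5 at 0.082 without animal 2 and for RPL11 at 0.056 without animal 1 and 0.1 without animal 2. The differences from Th17p did not pass (adjusted p = 0.37 and 0.2).

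Of 25 tested further p53 targets, 4 rose and 4 fell in Th17p (16% each way), 7 and 5 in Th17n (28% and 20%), and 6 and 9 in iTreg (24% and 36%). GTSE1, which carries p53 out of the nucleus, rose in Th17p, Th17n and iTreg by 0.49 ± 0.10, 0.64 ± 0.10 and 0.41 ± 0.10. The iTreg call was lost on other scalings (adjusted p = 0.053 with no scaling factors and 0.19 on log2 TPM). DCXR, a carbonyl reductase, fell in all 3 lineages by 1.84, 1.81 and 1.59. PML, the organiser of nuclear bodies, fell in Th17p and iTreg by 1.08 and 1.26. Its DFMO effect in Th17n differed from both, by 1.07 ± 0.17 against Th17p and by -1.25 ± 0.17 for iTreg minus Th17n. The former call was lost at an adjusted p of 0.07 without animal 1.

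Cell cycle genes that p53 lowers through p21 and the DREAM complex were tested as 18 genes. Of these, 9 rose and 0 fell in Th17p (50% higher), 9 rose and 1 fell in Th17n (50% and 5.56%), and 3 rose and 1 fell in iTreg (16.7% and 5.56%). At an unadjusted p under 0.05, and by DESeq2, the count of those that fell in Th17p was also 0. RRM2, the S-phase reductase subunit, rose by 0.60 ± 0.11, 1.53 ± 0.11 and 0.50 ± 0.11, more in Th17n than in Th17p by 0.93 ± 0.15 (adjusted p = 0.0013). Its call in iTreg was lost at 0.076 on log2 TPM and 0.093 without animal 2, and that of the difference at 0.081 without animal 2. MCM5, of the replicative helicase, also rose in all 3, a call lost in iTreg at 0.07 on log2 TPM. In vehicle 15 of the 18 genes (83.3%) were higher in iTreg than in Th17p, where 14.5% of all genes were higher. Of 14 genes of intrinsic apoptosis outside the main list, 3 rose and 3 fell in Th17p (21.4% each way), 4 and 5 in Th17n (28.6% and 35.7%), and 3 and 3 in iTreg (21.4% each way). CYCS, cytochrome c, rose in all 3 (0.73 ± 0.09, 1.04 ± 0.09 and 0.89 ± 0.09), and BCL2, which protects mitochondria, fell in all 3 by 1.04, 1.16 and 0.69. BCL2L11, which encodes the BH3-only protein BIM, fell by 2.03 and 2.67 in Th17p and Th17n. Its DFMO effect in iTreg differed from theirs by 1.36 ± 0.38 and 1.99 ± 0.42 (adjusted p = 0.035 and 0.0038). The calls were lost against Th17p at 0.11 without animal 1, 0.15 without animal 2, 0.21 without animal 3, 0.056 without the Th17n and iTreg DFMO libraries of animal 2 and against Th17n at 0.062 without animal 2.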

How the data were processed

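The authors deposited expected counts and TPM per gene symbol, 1 column for each of 36 samples (18 libraries in 2 runs), made with Bowtie2 and RSEM on GRCm38.p3 per the submitters' processing notes; annotation version and strand setting: not given in the sources used here. Of the deposited expected counts 12.2% were not whole, and the listed genes held 72.4% to 80.5% of the TPM scale, the rest being not analysed here. Runs of a library differed little (chi-square per degree of freedom 1.15 to 1.54, against 3.64 to 12.1 between animals), so their counts were summed and rounded, and TPM averaged. Library totals were 8307633 to 13986923 counts. Genes were filtered by group with filterByExpr, scaled by TMM and fitted in edgeR 4.0.16 (R 4.3.3) with the robust quasi-likelihood test, all 6 groups in 1 fit, p adjusted by Benjamini-Hochberg over 11526 genes, called under 0.05; the standard error is the log2 fold change over the root of F. The fit was also run on simulated counts, with an outcome not reported here. These had the same spread for every gene, no animal effect, and changes only in Th17p with DFMO and in more abundant genes. They do not bear on scarce genes or on the differences of DFMO effects. Group values are of 3 animals, and CPM is scaled by TMM.

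The members, their roles, the further lists and the markers were chosen with earlier results of these data known. Values in every library are given for TRP53, MDM2 and CDKN1A, for the 5 called members with the largest change in each DFMO comparison and the 4 in each vehicle comparison, and for members called in a difference of DFMO effects (up to 4 each); from each further list up to 4 genes a comparison were eligible, by smallest p, and some of these are not reported here. Alternatives were a replicate block (animal as a term), DESeq2 1.42.0, no filter on low counts, no scaling factors, limma 3.58.1 on log2(TPM + 1), leaving out each animal, and, chosen after seeing the data, leaving out the Th17n and iTreg DFMO libraries of animal 2, and the Th17n and iTreg vehicle libraries of animal 1. The labels number the replicates alike in every group, and the same number was taken to mean the same animal. Deviations from group means correlated with a median r of 0.158 over 45 same-number pairs of libraries. Over 90 pairs with different numbers the median r was -0.079. Promoter windows are from RefSeq, gene positions from GENCODE M21, both on GRCm38.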

Additional observations from a re-analysis of the deposited data

Results flagged for a closer look

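In 7 cases the effect of DFMO on a p53 gene differed between 2 lineages by the test of the difference itself (edgeR, adjusted p under 0.05, 3 animals a group). The difference for TRP53 was 0.691 for Th17n minus Th17p and 0.556 for iTreg minus Th17p, on the log2 scale. For EPHX1 it was -1.262 for Th17n minus Th17p and -1.139 for iTreg minus Th17p. ERCC5 differed by -1.065 for Th17n minus Th17p, PERP by -1.647 for iTreg minus Th17p and PMAIP1 by -1.468 for iTreg minus Th17n. Each kept its sign and lost its call when animal 2 was left out.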

How the results depend on the processing

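No value of the 31 genes that was called in any setting changed sign under any alternative run. Of 99 called gene results, 99 stayed called with DESeq2 and 99 with the replicate block (the fit paired by animal), 96 with no scaling factors, 93 without the Th17n and iTreg DFMO libraries of animal 2, 81 without the Th17n and iTreg vehicle libraries of animal 1, 92 with no filter on low counts, 87 on log2 TPM, and 69, 67 and 76 without animals 1, 2 and 3. Where libraries were left out, the count of the 31 genes called ranged from 8 to 17 for DFMO in Th17p, 7 to 15 for iTreg against Th17n, 9 to 15 for iTreg against Th17p, and 0 to 3, 0 to 1 and 0 to 5 for the differences of DFMO effects (Th17n minus Th17p, iTreg minus Th17n, iTreg minus Th17p). Over all genes the same ranges were 2416 to 3869 for DFMO in Th17p, 2488 to 4177 in iTreg, 945 to 2293 for Th17n against Th17p, 2784 to 4305 for iTreg against Th17n, 2290 to 3532 for iTreg against Th17p, and 27 to 483, 277 to 1177 and 107 to 878 for the differences; these fits have fewer samples. For iTreg minus Th17n, 2 of the 31 genes were called with the replicate block, 2 by DESeq2, 4 with no scaling factors and 6 on log2 TPM, against 1, and over all genes 2597 on log2 TPM (407 higher, 2190 lower) against 1396 (768 higher, 628 lower). For iTreg minus Th17p, all genes called were 1237 with the replicate block and 1343 on log2 TPM (313 higher, 1030 lower) against 789 (406 higher, 383 lower). With no scaling factors the median over all genes moved by -0.17 (DFMO in iTreg), 0.15 (iTreg against Th17n), -0.17 and -0.12 (iTreg minus Th17n and iTreg minus Th17p), and on log2 TPM by -0.14, 0.14, -0.22 and -0.17; the causes of these moves were not tested. With the replicate block BAX in Th17p, MDM4 and ERCC5 between vehicle lineages, and POLK and PMAIP1 among the differences gained a call, and no call was lost. GADD45A and PPM1D, at 3 to 36 and 8 to 84 counts a library, are the genes that depth limits most.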
